A study of Gossypium hirsutum with 89 samples.

Results

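The 150 probe sets described here share a course in developing cotton fibre: their signals were higher late, at 19 and 25 days post anthesis (dpa), than early, at 6 to 12 dpa, in the genotypes JKC 725 and JKC 703, while in JKC 777, JKC 783 and JKC 737 the average of the later days stayed close to that of the earlier ones. They were chosen on these same arrays, from the 24132 probe sets of the Affymetrix Cotton Genome array. Control, reporter and ribosomal RNA probe sets were left out, which left 23973. For each of the 30 groups of genotype and day the log2 of signal plus 4.4 was averaged. Of these probe sets 12516 reached at least 8 in their highest group. T, the late minus early difference, was taken between the average of 19 and 25 dpa and that of 6, 9 and 12 dpa, and 8464 probe sets had a T between -1 and 1 in each of JKC 777, JKC 783 and JKC 737. The members are the 150 of these with the highest value of the smaller T of JKC 725 and JKC 703.

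The arrays carried RNA from 5 genotypes of upland cotton, Gossypium hirsutum, that had been sown in an open field in India. JKC 725 is described by the submitters as superior in fibre traits and JKC 703 as inferior, and of the other genotypes JKC 777 is described as superior and JKC 783 and JKC 737 as inferior. The members are thus higher late in 1 genotype of each class. Flowers were tagged at anthesis and sampled at 0, 6, 9, 12, 19 and 25 dpa, without any treatment and with 3 biological replicates per group, except for JKC 783 at 25 dpa with 2, for a total of 89 arrays. The samples at 0 dpa were whole ovules, although their labels call them fibre, and all later samples were fibre alone. What separates the replicates (plants, plots or bolls) is not given in the labels, so the errors and p-values below speak of the spread among replicate arrays, which may be technical, and not of that among genotypes.

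A cotton fibre is a single, very long cell that grows out of the epidermis of the seed coat. It first elongates behind a thin, extensible primary wall, with expansins, pectate lyase and very long chain fatty acid synthesis active, and later lays down a thick secondary wall of almost pure cellulose. The embryo inside the same ovule fills with storage proteins and oil while the fibre matures. Known players of the later phase include cellulose synthases, fasciclin-like arabinogalactan proteins at the cell surface, and sucrose synthase, which splits sucrose and so supplies the glucose units of cellulose.

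The genotypes also differed in stage markers, which moved with the members in some groups and not in others. The summed signal of 12 probe sets for 8 secondary wall genes (CelA1, CTL1, FLA6, FLA7, nst3, susC, GLU and Rac9) lay at 12 dpa between 25695 and 29904 on the JKC 725 arrays and between 39802 and 47643 on the JKC 703 arrays, against 3948 to 6585 on those of JKC 777, JKC 783 and JKC 737. At 25 dpa it was 107603 to 119679 in JKC 725 and 100499 to 110380 in JKC 703, against 53271 to 88636 in JKC 777, 33741 to 57029 in JKC 783 and 96216 to 110478 in JKC 737. JKC 737 and JKC 703 thus overlapped in this sum at 25 dpa, though not in the elongation sum given below. The median log2 level of the members there was 6.97 and 9.14. The summed signal of 13 probe sets for 7 elongation genes, among them the expansin genes EXPA4 and EXPA11A and the pectate lyase gene Pel, was already down at 19 dpa to between 2831 and 4989 in JKC 725 and between 1823 and 3217 in JKC 703, against 35990 to 52719 in the other 3 genotypes. No array of JKC 725 or JKC 703 overlapped with the others in that sum. At 25 dpa the elongation sum was still 20992 to 28708.5 in JKC 737, against 1184 to 1356 in JKC 703. Single probe sets could go the other way: 11 of the 12 in the secondary wall sum had a T above 0 in JKC 725 and in JKC 703, but 1 of CelA1 was at -2.24 and -2.94. Likewise 3 of the 13 in the elongation sum, 1 of Pel and 2 of KCS38, were above 0 in both. None of the probe sets in these sums is a member. How much of the members' course goes with the stage of the fibre was not tested.

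RNA quality also moved with the members in part, and among markers of other tissue some did and some did not. The log2 ratio of the 3 prime to the 5 prime signal of the actin control, which grows as RNA is degraded or labelled incompletely, had a median of 3.08 on the 6 JKC 725 arrays of 19 and 25 dpa and of 1.72 on its 9 arrays of 6 to 12 dpa. In JKC 703 these medians were 3.01 and 1.60, whereas the late and early medians were 2.29 and 2.47 in JKC 777, 2.55 and 2.54 in JKC 783, and 2.28 and 2.51 in JKC 737. The ubiquitin 11 control showed the same split, with 2.86 late and 1.28 early in JKC 725 and 3.10 and 0.73 in JKC 703. Late medians were the lower ones in the other 3 genotypes. Late and early actin ratios of JKC 725 overlapped only through its 12 dpa replicate 2, at 2.32. At 19 dpa replicates 1 and 3 of JKC 725 were at 2.16 and 2.21. These lay below that array but above all other early arrays of JKC 725, which reached 1.83. With the actin ratio as a covariate the median T of the members was 2.35 in JKC 725 and 2.30 in JKC 703, against 2.32 and 2.42 without it. Each group has its own mean in that model, so the covariate is fitted on differences among replicates within groups only. It cannot separate a late shift in RNA quality from a late change of the members. The part of RNA quality in their course was not tested. The summed signal of 5 genes of ovule, seed coat and embryo (CPA-FAS-2, HIS2B, Lea5-D, Lea14-A and PG, none of them a member) at 19 and 25 dpa was 11212 to 18833 in JKC 725 and 14456 to 23705 in JKC 703, against 5213 to 12537 in the others, and in whole ovules at 0 dpa 9517 to 17168. The genes in this sum went different ways. Lea5-D, a late embryogenesis abundant protein gene, was the brightest late, with 7572 to 14045 at 25 dpa in JKC 725 and 15484 to 17367 in JKC 703, against 1477 to 8240.1 in the others. Its T was 1.98 and 1.71 in JKC 725 and JKC 703, against 1.98, 0.62 and 2.81 in JKC 777, JKC 783 and JKC 737. T was below 0 for Lea14-A in all 5 genotypes, at -2.82 in JKC 725 and -1.52 in JKC 703. For HIS2B it was 0.09 and 0.18, against -0.73 to -0.58 in the others. PG had a T of -0.02 in JKC 725 and 0.95 in JKC 703, against 0.895, 0.46 and 0.25 in JKC 777, JKC 783 and JKC 737. CPA-FAS-2, a cyclopropane fatty acid synthase gene, had 2280.0 to 4958 in ovules, but late only 14.6 to 568 in JKC 725 and 15.1 to 27.8 in JKC 703, against 0.297 to 62.4 in the others. The T of CPA-FAS-2 was 0.63 and 0.40 in JKC 725 and JKC 703, against -4.62, -4.905 and -3.96 in JKC 777, JKC 783 and JKC 737. The 7 probe sets for fibre genes (E6, EXPA1, LTP3, H6L, KCS12 and AnnGh1) summed to 41779 to 53149 on the late arrays of JKC 725 and JKC 703 together, against 85520 to 131031 on those of the other genotypes, and at 0 dpa, in ovules, to 14851 to 24317. Of these 7, T was below 0 for 5 in both JKC 725 and JKC 703, with EXPA1 at -3.50 and -3.88 and KCS12 at -3.78 and -4.77. H6L was at 0.42 and 0.66 and AnnGh1 at -0.14 and -0.22. The sum thus does not stand for all fibre genes alike. No probe set was named for the markers of photosynthetic tissue. The part of other tissue in the members' course was not tested, and in such bulk samples fewer cells of a type and less RNA per cell cannot be told apart.

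**Figure D1:**
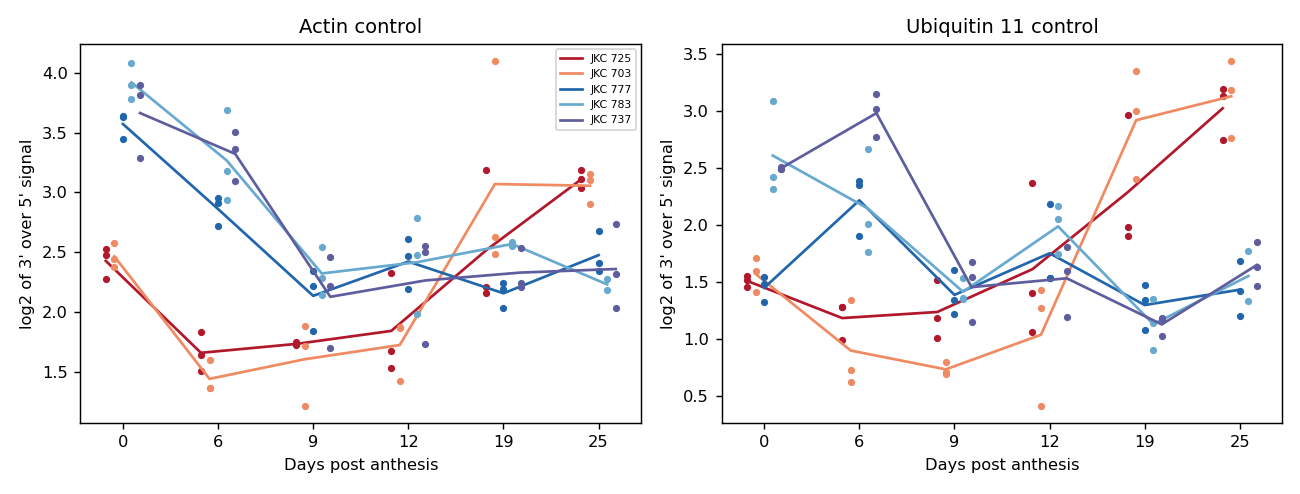
The log2 ratio of 3 prime to 5 prime signal of the actin and ubiquitin 11 control probe sets on each array (points) and its group mean (lines) by day post anthesis. In JKC 725 and JKC 703 most ratios are lower at 6 to 12 dpa than at 19 and 25 dpa. For actin, replicates 1 and 3 of JKC 725 at 19 dpa are at 2.16 and 2.21, below its replicate 2 at 12 dpa (2.32) and above its other early arrays. An array of JKC 703 at 19 dpa reaches 4.10 for actin.

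2 arrays stand apart. The JKC 725 array of 12 dpa, replicate 2, had a mean correlation of 0.932 with its replicates, where the next lowest array had 0.953 and the median was 0.974. The JKC 703 array of 19 dpa, replicate 3, had the highest actin ratio of the fibre arrays, 4.10, and its median signal, 119.8, was the highest of all arrays (the lowest was 59.9). No 2 arrays correlated above 0.993. Choosing the members again without the first of these arrays returned 138 of the 150, and without the second 143.

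The typical member had a low signal on the early days and a moderate one on the late days of JKC 725 and JKC 703. At 0, 6, 9, 12, 19 and 25 dpa the median level of the 150 members on the log2 scale was 6.67, 5.83, 6.53, 6.78, 8.90 and 9.03 in JKC 725. In JKC 703 it was 6.44, 6.24, 6.37, 6.77, 8.99 and 9.14. The early signals are low: 58 members at 6 dpa in JKC 725 and 43 in JKC 703 had a mean signal under 40.4, the limit used below to decide which probe sets are tested, and at 25 dpa no member did in either genotype. In JKC 777 the medians were 7.26, 6.69, 6.35, 6.46, 6.34 and 7.26, in JKC 783 7.001, 6.37, 6.43, 6.38, 6.58 and 6.65, and in JKC 737 6.92, 6.58, 6.42, 6.43, 6.69 and 6.97. The members were thus below the median of all tested probe sets in all genotypes up to 12 dpa, and above it at 19 and 25 dpa in JKC 725 and JKC 703. That they are higher late than early in these 2 follows from the choice of members.

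**Figure D2:**
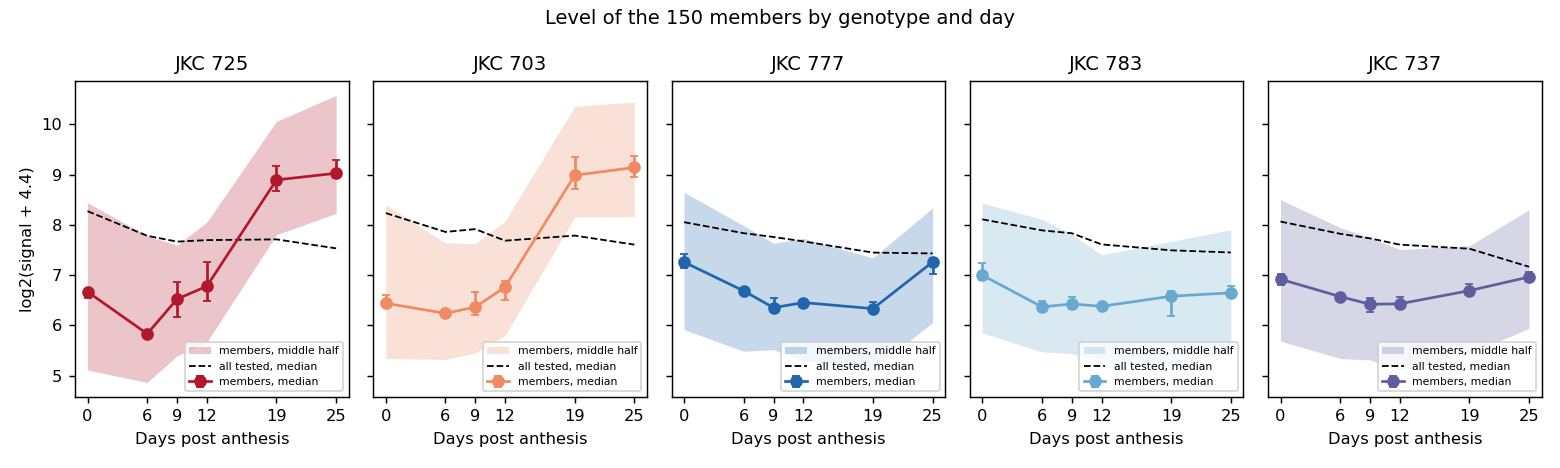
Median level of the 150 members by day post anthesis in each genotype, as log2(signal + 4.4), with the range of the medians of single arrays as bars and the members between the quartiles shaded; the dashed line is the median of all tested probe sets. The line steps up between 12 and 19 dpa in JKC 725 and JKC 703, and stands at 7.26 at 25 dpa in JKC 777, as it does in ovules there.

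The values that chose the members are given as a description. The median T was 2.32 in JKC 725 (range 1.80 to 8.48) and 2.42 in JKC 703 (1.82 to 7.34), against 0.32 in JKC 777, 0.13 in JKC 783 and 0.44 in JKC 737. Over all tested probe sets the medians were 0.10 in JKC 725 and 0.13 in JKC 703, against -0.09, -0.10 and -0.10 in JKC 777, JKC 783 and JKC 737. T was higher in JKC 725 for 75 members and higher in JKC 703 for the other 75, and for 136 members the 2 values lay within 1 of each other. The smaller T reached at least 3 in 17 members and at least 4 in 4, and was under 2 in 43. At the limit, Gra.2799.1.A1_at, GraAffx.10712.1.S1_s_at and Gra.1082.1.A1_s_at were just inside with a smaller T of 1.81, 1.81 and 1.80, while GhiAffx.23980.1.S1_at, GhiAffx.46311.1.S1_at and Ghi.6293.2.A1_x_at were just outside with 1.80, 1.80 and 1.80, so the values run on without a gap at the limit. With quantile normalization the rule returned 124 of the same probe sets, with median centring 117, and with an offset of 32 in place of 4.4 it returned 88.

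Every array of 19 and 25 dpa was above every array of 6, 9 and 12 dpa for 111 members in JKC 725 (11.4% of all tested probe sets), for 129 in JKC 703 (17.3%) and for 102 in both (8.29%). In JKC 777, JKC 783 and JKC 737 this held for 1, 5 and 9 members (7.24, 6.10 and 7.47% of all tested). These counts follow from the choice of members and nothing is read from them. The largest step lay between 12 and 19 dpa for 118 members in JKC 725 and 126 in JKC 703. It lay between 19 and 25 dpa for 112 members in JKC 777, 52 in JKC 783 and 70 in JKC 737. The highest of the 30 group means was at 19 or 25 dpa in JKC 725 or JKC 703 for 140 members, in the ovules of JKC 777 for 6, and in JKC 737 at 25 dpa for 4.

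**Figure D3:**
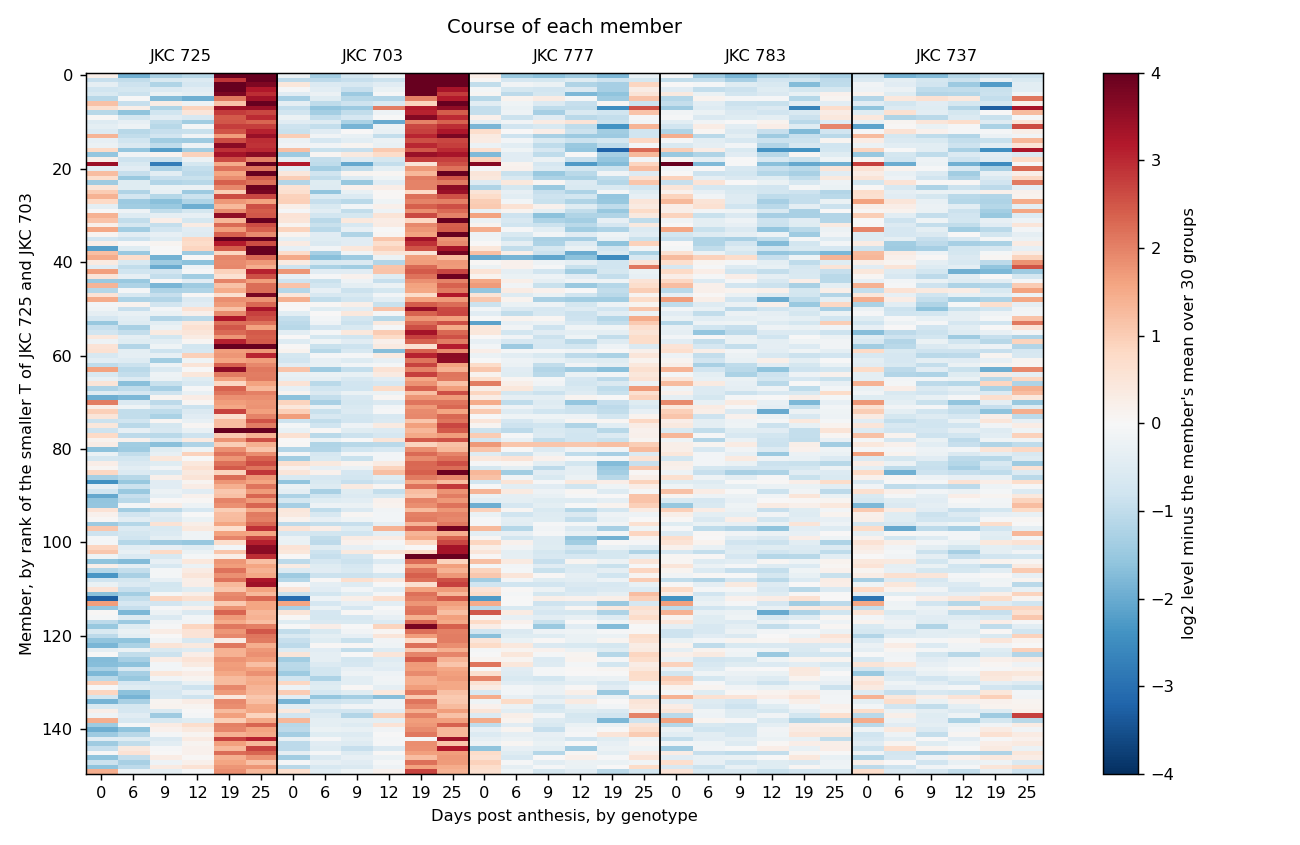
Level of each of the 150 members (one line each, ordered by the smaller T of JKC 725 and JKC 703) in the 30 groups, as the log2 level minus the mean of that member over all groups, with colours limited to 4 in both directions. The columns of 19 and 25 dpa in JKC 725 and JKC 703 stand out as high, and many lines are also raised at 25 dpa in JKC 777 and JKC 737.

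T averages 19 and 25 dpa, so the error of a step between them is independent of that of T where both days have equally many arrays. The course itself is not independent of the choice. The rule asks for a late rise in JKC 725 and JKC 703 and limits T in the other genotypes. It can thus favour probe sets that rise in those others at 25 dpa alone. The counts for this step are therefore a description. The step differed among genotypes, and called rises were most numerous in JKC 777 and JKC 737. For these members a late increase is therefore not particular to JKC 725 and JKC 703 at 25 dpa, although it is small in the average of both late days. Calls here need a limma p, adjusted by Benjamini-Hochberg over 18889 tested probe sets, under 0.05 together with a change of 1 or more on the log2 scale. All 150 members passed the filter for testing, but members passed through the groups where they are high, so that is no property of the list.

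In JKC 777, 53 members rose from 19 to 25 dpa and 0 fell, where 5.71% of all tested probe sets rose and 5.75% fell. Of the members, 88 were higher and 1 lower there at an unadjusted p under 0.05. In JKC 737, 42 members rose and 3 fell (4.95 and 12.7% of all tested), and in JKC 783, with 2 arrays at 25 dpa, 12 rose and 1 fell (1.80 and 2.39%). The median step of the members was 0.83 in JKC 777, 0.34 in JKC 737 and 0.09 in JKC 783, beside 0.02, -0.20 and -0.07 over all tested probe sets. Probe sets with as small a T in these 3 genotypes are a closer background: among the 8464 that met the same level and T limits, 2.74% rose and 2.55% fell in JKC 777, 2.86 and 6.96% in JKC 737, and 0.91 and 0.922% in JKC 783. In JKC 783 the count fell to 2 without replicate 2, which leaves 1 array at 25 dpa.

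In JKC 725 and JKC 703, where the members were already high at 19 dpa, 29 members went on rising and 3 fell in JKC 725 (1.73 and 4.78% of all tested), and 23 rose and 5 fell in JKC 703 (1.09 and 4.63%). Among the 8464, 1.49% rose and 3.15% fell in JKC 725 and 1.13 and 2.34% in JKC 703. The median steps of the members were 0.24 and 0.11, beside -0.10 and -0.13 over all tested. The count of 28 in JKC 703 was 18 without replicate 2 of every group and 17 without replicate 3, and its division was 25 risen and 1 fallen after quantile normalization and 29 and 1 after median centring. Of the 150 members, 18 rose in both genotypes (0.482% of all tested, 0.697% of the 8464) and 116 in neither (97.7 and 98.1%).

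The step differed among the 5 genotypes for 90 members by limma's F test (with the same limit on the adjusted p, and 1 or more between the highest and the lowest step), where 27.4% of all tested probe sets and 23.2% of those with the same level and T limits differed. Among these 90 the largest step was that of JKC 737 for 33, JKC 777 for 28, JKC 725 for 21, JKC 703 for 7 and JKC 783 for 1. That is 36.7% in JKC 737 and 31.1% in JKC 777, where it was 19.3 and 26.1% over all probe sets called. A called rise was present in at least 1 of JKC 777, JKC 783 and JKC 737 for 64 members (8.35% of all tested, 4.77% of the 8464), in both JKC 777 and JKC 737 for 32 (3.05 and 1.28%) and in all 3 for 10 (0.889 and 0.284%), which include FLA15 and SAMS. At 25 dpa, 54 members in JKC 777, 12 in JKC 783 and 46 in JKC 737 were at least 1 above their own mean of 6, 9 and 12 dpa, against 0, 2 and 7 at 19 dpa. The shares at 25 dpa were 11.5, 9.30 and 10.9% of all tested probe sets, and 2.54, 1.29 and 4.19% of the 8464, whose T limits hold such values down as they do for the members. For 81 members no such level was reached in any of the 3 (83.7% of all tested, 94.1% of the 8464). The summed secondary wall signal given above lay at 19 dpa between 13048 and 18301 in JKC 777 and between 14832 and 26184 in JKC 737, below all of their arrays of 25 dpa, and its part in the members' step was not tested.

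**Figure D4:**
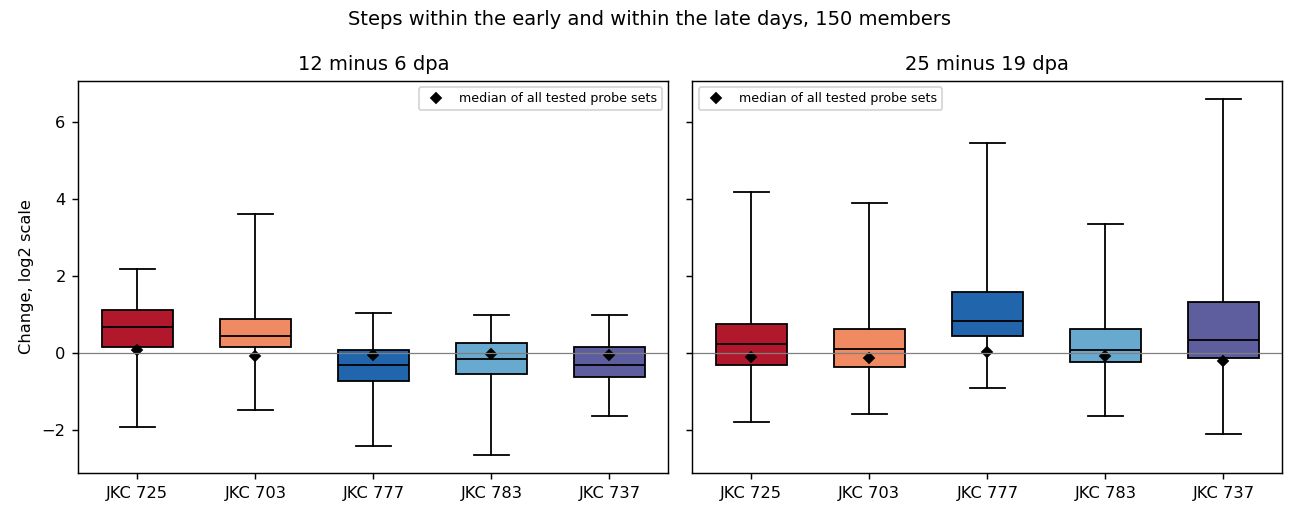
Steps on the log2 scale within the early days (12 minus 6 dpa) and within the late days (25 minus 19 dpa) for the 150 members in each genotype; boxes span the quartiles with the median as a line, whiskers reach the lowest and highest member, and diamonds mark the median of all tested probe sets. Early steps lie above 0 for most members in JKC 725 and JKC 703 and below 0 in the other 3, and late steps are highest in JKC 777, with a median of 0.83.

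The early days were averaged in T too, so the error of a step between 6 and 12 dpa is independent of that of T. The course itself is not independent of the choice. A rule that asks for a late rise in JKC 725 and JKC 703 alone can favour probe sets that already climb there by 12 dpa. The counts below are therefore a description. In JKC 725, 45 members rose over these days and 5 fell (11.7 and 5.91% of all tested), and in JKC 703, 23 rose and 2 fell (6.47 and 7.40%). In JKC 777, JKC 783 and JKC 737 limma called 0 members as risen, with 6, 6 and 4 higher at an unadjusted p under 0.05, while 14, 14 and 9 fell. The shares of all tested probe sets that rose in these 3 were 3.62, 7.68 and 5.72%, and the shares that fell were 4.07, 8.96 and 6.23%. The members' share of falls, 9.33% in JKC 783 and 6.0% in JKC 737, is near that of all tested probe sets there. It is above that of the 8464 with the same level and T limits, which was 3.58 and 1.96%. With the actin ratio as a covariate 6 members rose in JKC 783 and 3 in JKC 737. This ratio was 2.72 to 2.95 at 6 dpa and 2.19 to 2.61 at 12 dpa in JKC 777. It was 2.94 to 3.69 and then 1.99 to 2.79 in JKC 783, and 3.10 to 3.50 and then 1.73 to 2.55 in JKC 737. In JKC 725 and JKC 703 together it was 1.36 to 1.83 and then 1.42 to 2.32. The part of RNA quality in the early step was not tested. Median steps of the members were 0.67 in JKC 725 and 0.44 in JKC 703, against -0.30 in JKC 777, -0.16 in JKC 783 and -0.30 in JKC 737. The direction of these medians was the same under the authors' scaling, quantile normalization and median centring, which moved the median of all tested probe sets in JKC 725 to -0.01 and -0.15, against 0.08 as deposited.

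A rise was called in JKC 725 or JKC 703 for 60 members (13.9% of all tested, 4.91% of the 8464) and in both for 8 (4.23 and 0.78%). Among the 8464 probe sets with the same limits, 3.53% rose and 1.76% fell in JKC 725 and 2.16 and 1.54% in JKC 703, against 1.58 and 1.28% in JKC 777, 3.92 and 3.58% in JKC 783, and 3.20 and 1.96% in JKC 737. The F test of the difference among the genotypes called 64 members (23.8% of all tested, 21.6% of the 8464), and the largest step was in JKC 725 or JKC 703 for 60 of them. That is 93.8%, where it was 51.6% over all probe sets called and 44.5% over those called among the 8464. Replicate 2 bears on this: without it in every group the JKC 725 count was 30 in place of 50, the count of falls in JKC 777 was 4 in place of 14, and the F test called 36. Without only the JKC 725 array of 12 dpa that stands apart, 36 members rose and 2 fell in JKC 725, and the F test called 57.

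Of the 150 members, 9 are paired with 1 gene by the platform annotation and 141 with none, so 141 are given by probe set only. The best described is FLA15 (GhiAffx.16299.1.S1_s_at, LOC107896273), a fasciclin-like arabinogalactan protein gene of the family of cell surface glycoproteins, with the sixth highest smaller T. Its signals in JKC 725 were 6216, 3461 and 6823 at 19 dpa and 11716, 12167 and 13424 at 25 dpa, over 9 early arrays (6 to 12 dpa) of 203 to 1326 (median 384). In JKC 703 they were 5858, 6969 and 2963 at 19 dpa and 10955, 11359 and 10434 at 25 dpa, over early arrays of 388 to 1133 (median 587). In both genotypes every late array was above every early one.

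At 19 dpa FLA15 stood at 413, 411 and 546 in JKC 777, 436, 602 and 624 in JKC 783 and 636, 803 and 486 in JKC 737, below all early arrays of these genotypes, whose lowest were 1017, 896 and 1429. At 25 dpa it stood at 3033, 5242 and 1215 in JKC 777, 1073 and 1617 in JKC 783 and 5384, 5780.1 and 4954 in JKC 737. Among the fibre days FLA15 was thus lowest at 19 dpa in these 3 genotypes and higher again at 25 dpa, where all arrays of JKC 737 but not all of JKC 777 and JKC 783 exceeded their early ones. The step from 19 to 25 dpa was 1.23 ± 0.29 in JKC 725 (SE, limma, adjusted p = 0.00113), 1.14 ± 0.29 in JKC 703 (adjusted p = 0.00329), 2.56 ± 0.29 in JKC 777 (adjusted p = 5.72e-11), 1.26 ± 0.32 in JKC 783 (adjusted p = 0.00577) and 3.08 ± 0.29 in JKC 737 (adjusted p = 3.73e-14). The F test found that the steps differed, with a range of 1.94 (adjusted p = 3.63e-05). Before that, from 6 to 12 dpa, FLA15 fell by 1.91 in JKC 725 (limma, adjusted p = 2.08e-07), and a change of -0.71 in JKC 703 did not pass (adjusted p = 0.0502).

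SAMS (also named MAT; Ghi.9616.1.S1_s_at, LOC107910531) encodes S-adenosylmethionine synthetase, which makes the methyl donor used in wall polymer methylation and in ethylene and polyamine synthesis. It was the brightest of the named members, with 9512, 9288 and 10472 at 19 dpa and 14007, 14859 and 15147 at 25 dpa in JKC 725 and 11531, 10771 and 11158 and then 15495, 16201 and 14714 in JKC 703. The early arrays of these genotypes ran 568 to 2446 (median 1494) in JKC 725 and 1052 to 2478 (median 1867) in JKC 703, so late and early did not overlap in either. At 25 dpa the signals were 4430.0, 5999 and 2502 in JKC 777, 4462 and 2790.2 in JKC 783 and 4934, 5231 and 4185 in JKC 737. All of these lay below the lowest late signal of JKC 725 and JKC 703, yet between 19 and 25 dpa SAMS rose by 1.62 ± 0.35 in JKC 777, 1.40 ± 0.39 in JKC 783 and 1.40 ± 0.35 in JKC 737 (SE; limma adjusted p = 0.000195, 0.0128 and 0.000803). In JKC 725 and JKC 703 the steps of 0.59 and 0.47 did not pass. Ovules held more SAMS transcript than early fibre, with 4662, 4502 and 3736 in JKC 725 and 5373, 4972 and 5466 in JKC 703, and the fibre mean minus ovule over the 5 genotypes was -0.84 ± 0.12, short of the minimum change. Its 12 minus 6 dpa step differed among genotypes by 1.80 (limma F test, adjusted p = 0.00621).

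SusA1 (Ghi.8050.1.A1_s_at, LOC107910106), a sucrose synthase gene, was dim. Its signals were 86.5, 506 and 166 at 19 dpa and 318, 154 and 140.2 at 25 dpa in JKC 725, with 16.9 to 85.5 (median 32.4) on the early arrays, and 126, 232 and 1035 and then 206, 166 and 249.8 in JKC 703, with 21.8 to 84.2 (median 40.1) early. The value of 1035 is that of the JKC 703 array with the high actin ratio. The 506 is on the JKC 725 array with the highest ratio of its group, 3.19, but the 318 at 25 dpa is on that with its group's lowest, 3.04. In the late samples of JKC 777, JKC 783 and JKC 737 no array exceeded 87.6. A change of 1.39 ± 0.54 from 6 to 12 dpa in JKC 725 passed (SE, limma, adjusted p = 0.0376), but not with an offset of 32, with quantile normalization or median centring, or without any 1 replicate. A second SusA1 probe set, Ghi.8050.1.S1_s_at, is no member, with a T of 0.90 in JKC 725 and 0.32 in JKC 703, against 0.91, 0.46 and 0.91 in JKC 777, JKC 783 and JKC 737. The 2 probe sets of this gene thus have different courses.

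vicB_At (Ghi.1345.1.A1_at, LOC107928551), a gene of the vicilin storage proteins of the seed, and MatP7 (Ghi.8035.1.S1_at, LOC107888658), named in cotton for an oleosin that coats seed oil bodies, belong to the maturing embryo. vicB_At gave 437, 3711 and 205 at 19 dpa and 1686, 999.5 and 0.462 at 25 dpa in JKC 725, against 0.958 to 16.6 (median 4.97) early, and 48.6, 47.3 and 7.72 and then 32.3, 44.5 and 197 in JKC 703, against 2.11 to 11.6 (median 6.19) early. Late arrays overlapped with early ones in both genotypes, through 1 array each, and replicates of a group differed widely, from 0.462 to 1686 at 25 dpa in JKC 725. In the late samples of the other 3 genotypes the highest signal was 41.3. MatP7 gave 166, 348 and 113 at 19 dpa and 287, 337 and 149 at 25 dpa in JKC 725, but in JKC 703 26, 34.9 and 15.2 at 19 dpa and 228, 214 and 585 at 25 dpa. It was thus up at both late days in JKC 725 and at 25 dpa alone in JKC 703. Its step in JKC 703 was 3.44 ± 0.44 (SE, limma, adjusted p = 2.52e-08), against 0.37 ± 0.44 in JKC 725, and the steps differed among the genotypes by 4.11 (limma F test, adjusted p = 3.41e-06).

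Other seed storage transcripts were listed after the values of vicB_At had been seen. The legumin genes legB_Dt (Ghi.4623.1.A1_at) and legA_Dt and the maturation gene Mat5-D had a T of 4.06, 3.10 and 2.94 in JKC 725 and of 1.66, 0.99 and 1.76 in JKC 703, against values between -0.08 and 0.75 in the other 3 genotypes. A second legB_Dt probe set was lower late in all 5, with T between -1.98 and -1.13. Without the members vicB_At and MatP7, the summed signal of these 4 probe sets was 92.9 to 1389 (median 454) on the late arrays of JKC 725 and 84.5 to 551 (median 127) on those of JKC 703, against 90.6 to 194 in the others. The late arrays of the genotypes thus overlapped in this sum. The part of embryo RNA in the late samples was not tested.

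**Figure D5:**
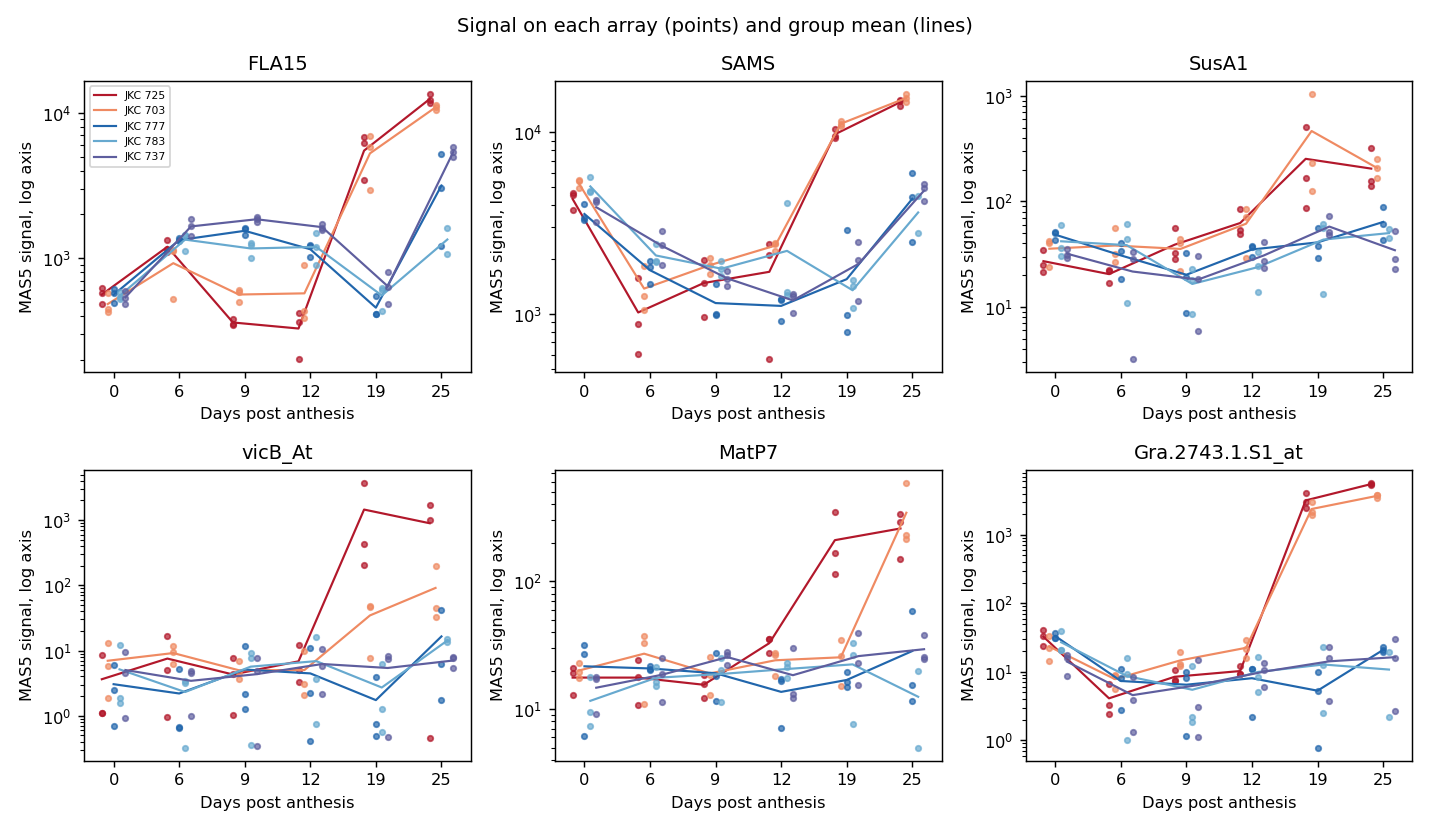
MAS5 signal on each array (points, log axis) and group means (lines) by day post anthesis for 6 members, with one colour per genotype. FLA15 and SAMS stand high from 19 dpa in JKC 725 and JKC 703 and are higher at 25 than at 19 dpa in the other 3 genotypes, vicB_At scatters between replicates, MatP7 is high from 19 dpa in JKC 725 but at 25 dpa alone in JKC 703, and Gra.2743.1.S1_at reaches at least 1921 late in JKC 725 and JKC 703, against at most 30.6 late in the others.

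The other 4 named members carry gene symbols without a described product. LOC107899648 (GhiAffx.10920.1.S1_s_at) gave 149, 88.3 and 308 at 19 dpa and 465, 699.7 and 803 at 25 dpa in JKC 725 and 729.7, 411 and 332 and then 1059, 1218 and 1868 in JKC 703, against at most 119.4 in any late array of JKC 777, at most 120.8 in JKC 783 and at most 75.9 in JKC 737. The 19 dpa arrays of JKC 725 overlapped with these late signals, and its 12 dpa arrays reached 336.5. Its rise of 1.97 ± 0.66 from 19 to 25 dpa in JKC 725 passed (SE, limma, adjusted p = 0.0286), but not without any 1 replicate. A second probe set of this gene had a T of 0.39 in JKC 725 and 1.05 in JKC 703, and of 1.42 in JKC 777.

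LOC107907413 (Ghi.7009.1.A1_x_at) gave 377, 1129.7 and 383 at 19 dpa and 913, 276 and 308 at 25 dpa in JKC 725. In JKC 703 it gave 223, 460.0 and 1367 and then 182, 606 and 384. Its step from 6 to 12 dpa in JKC 725, 1.99 ± 0.49 (SE, limma, adjusted p = 0.000902), rests on 1 array: the signals at 12 dpa were 89.5, 654 and 101, and without that array, which stands apart, the step was 1.08 and did not pass. The F test among genotypes, with a range of 2.48 (adjusted p = 0.0185), was lost without it too, at 1.58. That array had its group's highest actin ratio, 2.32, as did those with the 1129.7 and 1367 of 19 dpa, at 3.19 and 4.10. At 25 dpa the 606 in JKC 703 was on such an array too (3.16), but the 913 in JKC 725 was on that with its group's lowest (3.04). The part of RNA quality was not tested. The second probe set of this gene had a T between -0.30 and -0.01 in the 5 genotypes. So for each of the 3 genes with a second probe set, that probe set is no member.

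LOC107930564 (GhiAffx.2189.1.S1_at) gave 1264, 522 and 399 at 25 dpa in JKC 725 and 238, 432 and 657 in JKC 703, over early arrays of 9.38 to 94.7 (median 49.9) and 26.4 to 107 (median 44.3). In ovules it was lowest in JKC 725, at 6.63, 4.78 and 3.04, and highest in JKC 777, at 55.5, 42.6 and 59.1, and the ovule levels differed by limma's F test (range 2.63, adjusted p = 0.0149). LOC107893375 (Ghi.7908.1.S1_at) was called in neither step, with late signals of 218 to 388 (median 284) in JKC 725 and 217 to 505 (median 375) in JKC 703, and none above 99.9 in the late arrays of the other 3 genotypes.

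The strongest member by the rule was the unnamed Gra.2743.1.S1_at, with a T of 8.48 in JKC 725 and 7.34 in JKC 703. Its signals were 2437, 4040.3 and 3060.4 at 19 dpa and 5298, 5514 and 5712 at 25 dpa in JKC 725, and 1921, 2174 and 3048 and then 3861, 3767 and 3483 in JKC 703. On the early arrays it ran 2.39 to 12.4 (median 7.59) in JKC 725 and 5.69 to 29.6 (median 12.8) in JKC 703, near background. Late and early arrays were far apart in both genotypes, and the highest signal on any late array of JKC 777, JKC 783 and JKC 737 was 30.6. In JKC 777 a change of 1.497 ± 0.489 from 19 to 25 dpa passed (SE, limma, adjusted p = 0.0184), at signals of 9.84, 0.785 and 5.29 at 19 dpa and 20.7, 22.7 and 19.3 at 25 dpa.

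The next in rank differed in what they did between the late days. GhiAffx.21532.1.S1_at was still climbing, with 113, 88 and 90.01 at 19 dpa and 1107, 728 and 893 at 25 dpa in JKC 725 (a step of 3.16 ± 0.47, SE, limma, adjusted p = 4.93e-07) and 388, 313 and 246 and then 1204, 897 and 1051 in JKC 703. Its highest late signal elsewhere was 17.1. Ghi.8947.1.S1_at was past its highest day in JKC 725: it gave 705, 1183 and 608 at 19 dpa and 455, 246 and 199 at 25 dpa in JKC 725 and fell by 1.49 ± 0.37 (SE, limma, adjusted p = 0.00253). Ghi.8947.1.A1_at, which shares its ID number and may measure the same locus, gave 2946, 1785 and 2474 and then 1659.9, 1316 and 863 in JKC 725. That change of -0.93 did not pass. In JKC 703 the step of Ghi.8947.1.S1_at, -0.70, did not pass. Ghi.8947.1.A1_at gave 1607, 2012 and 1023 and then 1989.9, 2023 and 1062 there, a step of 0.12. A fall was thus called for 1 of the 2 probe sets, in JKC 725. Gra.1643.1.A1_s_at gave 227, 706 and 984 at 19 dpa and 123, 219 and 221 at 25 dpa in JKC 703, a change of -1.55 ± 0.52 (SE, limma, adjusted p = 0.033). Over the same days in JKC 777 it rose by 2.14, Ghi.8947.1.A1_at by 2.20 and Ghi.8947.1.S1_at by 1.62 (limma adjusted p = 0.00118, 0.0001 and 0.000504). The signals were low. They were 0.958, 1.33 and 17.5 at 19 dpa and 36.8, 33.6 and 32.1 at 25 dpa for Gra.1643.1.A1_s_at. They were 40.4, 24.4 and 34.1 and then 200.1, 377 and 57.1 for Ghi.8947.1.A1_at and 5.95, 9.82 and 8.8 and then 35.1, 39.9 and 27.9 for Ghi.8947.1.S1_at. With an offset of 32 the changes were 0.81, 1.66 and 0.72. Only that of Ghi.8947.1.A1_at was then called, and at the offset of 4.4 it was not called without replicate 2.

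Ghi.10579.1.S1_at, the eighth in rank, shows how different the timing was between genotypes. In JKC 703 it was at 1687, 2022 and 1516 at 12 dpa and 4843, 5001 and 4869 at 25 dpa, and in JKC 725 at 1036, 361 and 1244 and then 4219, 4248 and 5051. In JKC 737 it was at 29.8, 68.6 and 27.8 at 19 dpa and at 3678, 4612 and 4349 at 25 dpa, close to the signals of JKC 725 and JKC 703. It reached 3711, 3696 and 1109 at 25 dpa in JKC 777, over 81.4, 81 and 55.3 at 19 dpa, and 361 and 1298 in JKC 783, over 93.7, 42.1 and 61.7. In these 3 genotypes the low signals of 19 dpa and the high ones of 25 dpa average out in T, which was 0.80 in JKC 777, -0.37 in JKC 783 and 0.75 in JKC 737. Its step from 19 to 25 dpa was 6.61 ± 0.38 in JKC 737, 5.03 ± 0.38 in JKC 777 and 3.36 ± 0.43 in JKC 783 (SE, limma, adjusted p = 3.49e-22, 5.8e-17 and 9.75e-08), against 0.01 in JKC 725 and 0.35 in JKC 703, which did not pass. From 6 to 12 dpa it rose by 3.62 ± 0.38 in JKC 703 (limma, adjusted p = 7.59e-12), and in JKC 725 the step of 0.65 did not pass.

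In whole ovules at 0 dpa, which the rule did not use except for the minimum level, 57 members differed among the 5 genotypes by limma's F test, where 28.5% of all tested probe sets differed (18.7% of the 8464 with the same limits). Among the 57 the ovule level was highest in JKC 777 for 39 and lowest in JKC 725 for 35, and the genotype highest in ovules was JKC 725 or JKC 703 for 9. Over all probe sets called in ovules, 49.8% were highest in JKC 777, 34.7% in JKC 725 or JKC 703, and 35.6% lowest in JKC 725. Over those called among the 8464 these shares were 26.8, 56.1 and 20.9%. For the 57 members they were 68.4, 15.8 and 61.4%. The median ovule level was 6.67 in JKC 725 and 6.44 in JKC 703, against 7.26 in JKC 777, 7.001 in JKC 783 and 6.92 in JKC 737. The actin ratio at 0 dpa was also lower in JKC 725 and JKC 703, with medians of 2.47 and 2.44. In JKC 777, JKC 783 and JKC 737 its medians were 3.63, 3.90 and 3.81. With the actin ratio as a covariate 44 members were called. The ubiquitin 11 ratio at 0 dpa did not divide the genotypes in this way. Its medians were 1.518 in JKC 725, 1.596 in JKC 703 and 1.482 in JKC 777. In JKC 783 and JKC 737 they were 2.426 and 2.497. JKC 777, highest in ovules for 39 of the 57 members, had the lowest ubiquitin 11 median, but an actin median above those of JKC 725 and JKC 703. The part of RNA quality in the ovule levels was not tested.

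Set against ovules, the members had no common direction. Over the 5 genotypes the mean of the fibre days was above the ovule level for 18 members and below it for 19 (13.1 and 23.0% of all tested, 12.2 and 16.8% of the 8464). This division depended on the scaling: it was 33 above and 14 below after quantile normalization and 36 and 10 after median centring, while the median of all tested probe sets was -0.20 as deposited, -0.05 after quantile normalization and 0.12 after median centring. With the actin ratio as a covariate it was 32 above and 20 below. Ghi.8762.2.A1_at was the member with the largest excess in fibre, 3.35 ± 0.13 (SE, limma, adjusted p = 2e-34), with 755, 408 and 475 at 25 dpa and 2.49, 10.2 and 8.35 in ovules of JKC 725. GhiAffx.8042.1.A1_at was the lowest relative to ovules, -4.09 ± 0.24 (limma, adjusted p = 6.4e-25): in JKC 725 it gave 1082, 798 and 450.4 at 25 dpa, 1.11, 1.6 and 0.794 at 9 dpa and 438, 425 and 344 in ovules.

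The fibre mean itself differed among the genotypes for 97 members (22.8% of all tested, 13.9% of the 8464), 96 of them highest in JKC 725 or JKC 703. The late days enter that mean, so this follows from the choice and nothing is read from it. Between JKC 725 and JKC 703, described as superior and inferior in fibre traits, 5 members differed in the fibre mean, which holds the late days that the rule asked to be high in both. Of them 2 were higher in JKC 725 and 3 lower (0.736 and 1.09% of all tested, 0.461 and 0.591% of the 8464), and 131 of 150 differed by less than 0.5 (89.8% of all tested, 94.5% of the 8464), with a median difference of -0.06. Those higher were vicB_At, by 1.13 ± 0.42 (SE, limma, adjusted p = 0.0421), and Ghi.8748.1.A1_at, by 1.05, and neither was called without the JKC 703 array that stands apart or without the JKC 725 one. Among the 3 lower were Ghi.5389.1.A1_at, at -1.07, and Ghi.1650.1.S1_s_at, at -1.05, and after median centring the counts were 2 higher and 0 lower. In ovules 1 member was higher and 0 were lower in JKC 725 (1.05 and 0.762% of all tested, 1.00 and 0.555% of the 8464), with 8 higher and 14 lower at an unadjusted p under 0.05. The member that was higher was Ghi.10579.1.S1_at, with 712, 746 and 534 in JKC 725 and 208, 211 and 227 in JKC 703 (a difference of 1.59 ± 0.38, SE, limma, adjusted p = 0.00606).

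By function, 2 of the 16 gene lists hold members. They are sucrose cleavage, with SusA1 as 1 of its 3 tested probe sets, and the fasciclin-like arabinogalactan proteins, with FLA15 as 1 of 17. None of the 3 secondary wall cellulose, 10 NAC, 8 MYB, 3 WRKY, 15 wall loosening, 9 lipid, 8 redox, 5 protein turnover, 2 water stress, 3 defence, 11 ethylene, 4 ribosomal, 11 cytoskeleton and 2 cell division probe sets is one. Since 643 of the 18889 tested probe sets have a gene, these counts cover a small share of the array. GLU, a glucanase gene of the secondary wall list, came near the rule, with a T of 6.05 in JKC 725 and 5.42 in JKC 703 against 0.34 in JKC 777, but -1.70 in JKC 783 and 1.24 in JKC 737 put it outside. Lists without a member went both ways. The 3 WRKY probe sets had a median T of 1.30 in JKC 725 and 1.97 in JKC 703, against -0.15, -0.58 and -0.10 in JKC 777, JKC 783 and JKC 737. For the 9 lipid probe sets it was -3.22 and -2.94, against 0.065, 0.20 and 0.24.

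The identifiers were much like those of the array as a whole. Probe sets designed on Gossypium raimondii sequence (prefix Gra or GraAffx) made up 28.0% of the members and 22.5% of all tested, and those whose ID ends in s_at, x_at or a_at, which can bind transcripts of several related genes or of the A and D copies, made up 48.7% and 50.1%. The 150 members have 146 distinct ID numbers, 8 of them sharing 4 numbers, so a few may count 1 locus more than once.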

How the data were processed

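Total RNA was hybridised to 1-colour arrays, and each deposited value is an intensity on a linear scale, 1 for every array and probe set, made by the authors with MAS5 per the submitters' processing notes (version not given in the sources used here). Trimming 2% at both ends gave array means between 500.09 and 500.19. The authors' scaling was kept, 4.4 was added and log2 taken. Probe sets with IDs starting AFFX (103) were left out. The other 18889 tested had a mean signal in at least 1 of 30 groups at or above the 40th percentile of the table, 40.4. limma 3.58.1 in R 4.3.3 fitted 1 mean per group over 89 arrays, moderating variances along an intensity trend, and p-values were adjusted by Benjamini-Hochberg over all that were tested. The contrasts and the limma steps were tested on simulated data. JKC 783 has 2 arrays at 25 dpa, so the error of its late step is only nearly independent of that of T. The precision is limited by the number of arrays.

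The members and gene lists were chosen with earlier results of these data known. Genes were named through GEO's platform annotation and RefSeq synonyms of the gene it gives: 697 probe sets have 1 gene, 46 several and 23389 none. Named in the text are all members with 1 gene, the 5 with the highest smaller T, the 3 on each side of the limit, and up to 2 called members per contrast and direction, of which those that bear on a result are shown; the seed storage list and GLU were chosen after their values were seen. Alternatives were other offsets, scalings, filters and priors, a replicate block, and leaving out arrays. Replicate numbers did not pair samples. No sequences or promoters were used here.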

Additional observations from a re-analysis of the deposited data

Results flagged for a closer look

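The 25 minus 19 dpa step differed among the 5 genotypes for 90 members and the 12 minus 6 dpa step for 64, by limma's F test of the difference itself. The shares over all tested probe sets were 27.4% and 23.8%. The choice of members can favour such differences in both steps, so these counts are a description. FLA15 differed in both, with a range among genotypes of 1.94 late and 1.90 early on the log2 scale. MatP7 differed in the late step by 4.11, through its rise at 25 dpa in JKC 703. SAMS differed in the early step by 1.80 and LOC107907413 by 2.48, which rests on the JKC 725 array of 12 dpa, replicate 2. The actin and ubiquitin control ratios differed between the same days and genotypes, and their part was not tested.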

How the results depend on the processing

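Of 230 member counts recomputed under 13 alternative settings, 201 stayed within 1.5 times of the reported count. Of 2275 called values of named members recomputed, 2052 stayed past the threshold, 223 no longer passed and 0 changed direction. The counts that moved were these, and their causes were not tested unless fewer arrays or the offset's own compression of low signals is the change made. With an offset of 32, the 12 minus 6 dpa count was 24 in place of 50 in JKC 725, 12 in place of 25 in JKC 703, 8 in place of 14 in JKC 777, 9 in place of 14 in JKC 783 and 3 in place of 9 in JKC 737; the fibre minus ovule count was 24 in place of 37, and the rule returned 88 of the 150 members. The 12 minus 6 dpa count in JKC 725 was 33 with quantile normalization and 32 with median centring, and in JKC 737 it was 5 with median centring and 15 with the actin ratio as a covariate, a setting added after the data were seen. The count for JKC 725 minus JKC 703 in ovules (1) was 2 with an offset of 32, 3 with quantile normalization and 2 without an intensity trend. In the fibre mean (5) it was 3 without an offset, 1 with an offset of 32, 2 with median centring, 2 without the JKC 725 array of 12 dpa and 3 without the JKC 703 array of 19 dpa that stand apart (a setting also added later).

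Leaving out replicate 1, 2 or 3 in every group gave ranges for the counts that moved: for 12 minus 6 dpa 30 to 48 in JKC 725 and 4 to 14 in JKC 777, for 25 minus 19 dpa 17 to 19 in JKC 703 and 2 to 18 in JKC 783, for the 12 minus 6 dpa F test 36 to 54, and for JKC 725 minus JKC 703 0 to 2 in ovules and 1 to 5 in the fibre mean. The other counts stayed within 1.5 times, among them 66 to 77 for the 25 minus 19 dpa F test and 39 to 57 for JKC 777, and the rule returned 106 to 114 of the members.

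Under the replicate block the 25 minus 19 dpa count was 32 in JKC 725 and 28 in JKC 703, and the block moved none of the 17 member counts by over 1.5 times. Same-numbered samples of different days correlated above 0.1 in their deviations in 7 of 29 pairs (range -0.42 to 0.37), so the numbers are no pairing. Low signals limit precision: 24 to 58 members had a mean signal under 40.4 in every group but the late ones of JKC 725 and JKC 703, where 0 to 6 did, and differences between such signals depend on the offset.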
